A study of Mus musculus with 12 samples.

Results

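The genes described here are 8 receptors of the tumour necrosis factor (TNF) superfamily: Tnfrsf4, Tnfrsf9, Tnfrsf18, Tnfrsf1a, Tnfrsf1b, Cd27, Fas and Cd40. Every probe set that the annotation of the Affymetrix Mouse430_2 array maps to 1 of these symbols was taken, which gave 13 probe sets of the 45037 on the array, or 8 of the 18193 genes named there. In the study, 4 cell types of mice with the strain background C57BL/10.RIII were compared, with RNA of each on 3 arrays. Its title places the cells in experimental autoimmune encephalomyelitis, a mouse model of multiple sclerosis, and concerns regulatory T cells that carry the transcription factor FoxA1. The 3 arrays labelled iFoxA1Treg are titled as IFN-beta induced and are described as induced FoxA1Treg, CD4hi and PD-L1hi. The 3 nFoxA1Treg arrays are titled as neuron induced, are named natural FoxA1Treg in another label, and carry the same surface markers. The 3 Treg arrays hold cells labelled CD4+ and TGFbeta+, and the 3 EncT arrays hold encephalitogenic T cells labelled CD4+. The labels give no number of animals, no pooling and no purity, and do not say that arrays of a group came from separate cultures, so the p-values measure the spread between arrays, which may be technical.

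Receptors of this family bind trimeric ligands of the TNF superfamily on other cells or in solution. Their tails recruit TRAF adaptors, which lead to NF-kappaB, and Fas and Tnfrsf1a also hold a death domain that can start cell death. Tnfrsf4 (OX40), Tnfrsf9 (CD137), Tnfrsf18 (GITR) and Cd27 are costimulatory receptors of T cells, and mouse regulatory T cells are known for high Tnfrsf18 and Tnfrsf4. Cd40 is the receptor through which T cells that carry CD40 ligand activate B cells, dendritic cells and macrophages.

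The promoter windows of 4 members are shown. By their brightest probe sets, Tnfrsf18 and Tnfrsf9 were lower than in EncT, and Tnfrsf1a and Tnfrsf1b higher, on the arrays labelled iFoxA1Treg. Another probe set of Tnfrsf9 and another of Tnfrsf1b pointed the other way (below). Cd40, Cd27, Tnfrsf4 and Fas, which changed more than Tnfrsf1a and Tnfrsf1b, are not shown. Each window shown is the 250 bases before a start in the RefSeq table of build GRCm38.p6, 5′ to 3′ on the gene's strand. They lie at chr4:156026072-156026321 (plus strand, Tnfrsf18), chr4:150927749-150927998 (plus strand, the later of 2 listed Tnfrsf9 starts), chr6:125349473-125349722 (plus strand, Tnfrsf1a) and chr4:145246871-145247120 (minus strand, Tnfrsf1b). Capitals mark matches, on either strand, to kappaB (GGNNTTTCC), AP-1 (TGANTCA), the STAT site GAS (TTCNNNGAA) or the interferon response element ISRE (GAAANNGAA).
Tnfrsf18: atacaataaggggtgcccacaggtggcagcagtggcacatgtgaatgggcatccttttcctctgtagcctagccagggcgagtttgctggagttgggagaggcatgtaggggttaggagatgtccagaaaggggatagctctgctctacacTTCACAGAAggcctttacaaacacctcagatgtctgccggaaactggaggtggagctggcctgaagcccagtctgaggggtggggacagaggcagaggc
Tnfrsf9: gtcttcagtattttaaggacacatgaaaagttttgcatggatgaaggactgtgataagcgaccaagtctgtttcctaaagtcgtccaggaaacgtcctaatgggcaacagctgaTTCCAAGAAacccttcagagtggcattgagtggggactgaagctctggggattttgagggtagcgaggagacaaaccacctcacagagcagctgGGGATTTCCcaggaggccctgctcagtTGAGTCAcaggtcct
Tnfrsf1a: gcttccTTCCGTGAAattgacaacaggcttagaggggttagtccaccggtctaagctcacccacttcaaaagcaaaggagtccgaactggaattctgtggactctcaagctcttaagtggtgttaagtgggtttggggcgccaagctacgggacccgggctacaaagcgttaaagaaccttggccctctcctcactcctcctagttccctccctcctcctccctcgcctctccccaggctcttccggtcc
Tnfrsf1b: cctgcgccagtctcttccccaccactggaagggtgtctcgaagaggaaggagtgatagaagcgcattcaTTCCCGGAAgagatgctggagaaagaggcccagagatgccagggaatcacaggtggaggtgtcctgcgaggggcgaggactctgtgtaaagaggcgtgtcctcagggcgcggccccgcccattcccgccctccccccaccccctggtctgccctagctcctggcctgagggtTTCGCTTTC

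In all, 7 motifs were searched on both strands in the 8 windows found for 7 members. Besides those above, these were a wider-spaced kappaB (GGNNNTTCC), RUNX (TGTGGT) and ETS (GGAAG). Cd40 had no entry. The window of the earlier Tnfrsf9 start (chr4:150919905-150920154, plus strand) held 0 matches to any of the 7. The kappaB match, which is also a match of the wider-spaced form, stood 42 bases before the later Tnfrsf9 start, with an AP-1 match 15 bases before it. Of 32851 windows of this length, 4.93% held the kappaB letters, 15.7% the wider-spaced form and 6.75% the AP-1 letters. AP-1 letters were also present for Fas, and the wider-spaced kappaB form for Tnfrsf1a, where it overlapped an ETS match. GAS letters occurred in 5 of the 8 windows (Tnfrsf9, Tnfrsf18, Tnfrsf1a, Tnfrsf1b and Fas), against 7.02% of all windows, and overlapped an ETS match in Tnfrsf1a, Tnfrsf1b and Fas. ISRE letters ended at the base before the Tnfrsf1b start, were also found for Tnfrsf4, and occurred in 7.13% of all windows. ETS letters were in 5 of the 8 windows and 64.1% of all, and RUNX letters in 0 of the 8 and 14% of all. The motifs were chosen after the expression values had been seen, and a match of letters describes the window only. Tnfrsf4 and Tnfrsf18 are neighbouring protein-coding genes on chromosome 4, and Tnfrsf1b lies next to Tnfrsf8, another receptor of the family.

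The authors' log2 values were quantile normalized between arrays, and all values below are on this normalized log2 scale. They are compared for the same probe set between groups, not between probe sets. A change was called where limma gave an adjusted p under 0.05 over the 27022 probe sets past a filter on dim probe sets. Within groups, arrays correlated at 0.828 to 0.857 over all probe sets. Arrays of different groups among nFoxA1Treg, Treg and EncT correlated at 0.815 to 0.847, while the arrays labelled iFoxA1Treg correlated with the others at 0.683 to 0.739. Before normalization the array medians were 4.64 to 4.70 on the arrays labelled iFoxA1Treg and 4.76 to 4.84 on the other 9.

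The arrays labelled iFoxA1Treg went against their label as CD4hi T cells, so they are named by that label throughout. Cd4 read 4.35, 4.24 and 4.14 on them, against 10.34 to 10.59 on the other 9 arrays. The sum of 9 measured T cell markers on a linear scale was 4950 to 5267 on these arrays, 17508 to 18138 in nFoxA1Treg, 18112 to 18409 in Treg and 18770 to 19933 in EncT. All 9 were above the filter level of 4.05 in every group, led by Cd3d at a mean of 10.70 on the arrays labelled iFoxA1Treg and 12.09 in EncT. The sum of 9 B cell markers was 19555 to 21358 on the arrays labelled iFoxA1Treg, 128 to 163 in nFoxA1Treg, 149 to 166 in Treg and 154 to 232 in EncT. Macrophage and monocyte markers (9 measured) summed to 14008 to 14460 on the arrays labelled iFoxA1Treg, 191 to 250 in nFoxA1Treg, 231 to 264 in Treg and 316 to 364 in EncT. Dendritic cell and MHC class II markers (10 measured) summed to 16218 to 16890, 130 to 319, 330 to 437 and 600 to 751 in the same order of groups. In this last list the MHC class II genes H2-Aa, H2-Ab1, H2-Eb1 and Cd74 and their regulator Ciita were higher than in EncT, which B cells and macrophages also express. Its chemokine Ccl22 was lower than in EncT by 1.84 (adjusted p = 0.00435), Zbtb46 was at 0.36 (adjusted p = 0.132), and Itgax and Ccl17 lay below the filter level on the arrays labelled iFoxA1Treg. CD8 T and NK cell markers (8 measured) summed to 1388 to 1448 on these arrays, 3978 to 4208 in nFoxA1Treg, 4402 to 4656 in Treg and 1717 to 5112 in EncT. Of 6 tested there against EncT, 4 were higher, namely Cd8a (1.16), Cd8b1 (1.54), Eomes (1.88) and Prf1 (1.36). Gzma was lower by 2.71, and of all genes 33.7% were higher and 38.0% lower. Eomes averaged 3.88 in nFoxA1Treg, 3.79 in Treg and 3.97 in EncT, all under the filter level, and 5.84 on the arrays labelled iFoxA1Treg. Its selection and its call thus rest on the same arrays. The same held for Ciita, at 2.43, 2.93, 3.72 and 7.73 in that order. With 16 added to the linear values before log2, the change against EncT was 1.21 for Eomes and 2.95 for Ciita. In nFoxA1Treg, Treg and EncT 3 of the 9 B cell markers each were above the filter level, with a highest mean of 5.47 (Cd22), 5.56 (Cd22) and 5.51 (Ebf1). They were Cd22, Ebf1 and Pax5 in nFoxA1Treg and Treg, and Cd22, Ebf1 and Ms4a1 in EncT. Ms4a1 was lower in nFoxA1Treg than in EncT by 1.78 (adjusted p = 0.0229) and Cd79b by 4.14 (0.0358). With 16 added before log2 these changes were -0.80 and -0.69. Ms4a1 and Cd79b averaged 12.24 and 12.17 on the arrays labelled iFoxA1Treg, and their choice for testing rests on those arrays. Cd79a and Cd79b, which form the B cell receptor complex, lay in nFoxA1Treg, Treg and EncT below the filter level. Of the 9 macrophage markers 5 were above it in nFoxA1Treg, 5 in Treg and 8 in EncT, where Lyz2 averaged 5.18 and Cybb 5.11, and Itgam, an integrin of macrophages, lay below it in all 3 groups. In such bulk RNA, fewer cells of a type and less RNA per cell cannot be told apart.

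**Figure D1:**
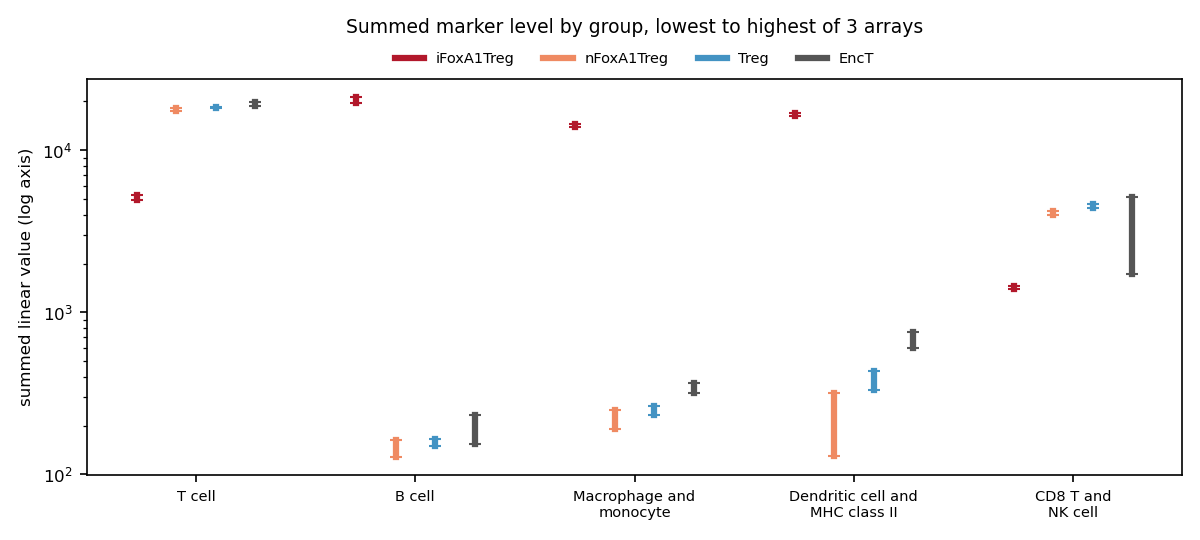
Summed linear values of 5 lists of cell type markers (y axis, log scale) in the 4 groups, with the lowest and the highest of 3 arrays joined by a bar. The arrays labelled iFoxA1Treg stand below the other groups for T cell markers and far above them for B cell, macrophage, and dendritic cell and MHC class II markers. EncT stands highest of the other 3 groups for the last 2 of these, and its CD8 T and NK cell sum spans 1717 to 5112.

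The members split by direction on the arrays labelled iFoxA1Treg. By the brightest probe set of each gene, the T cell costimulators Tnfrsf4, Tnfrsf9 and Tnfrsf18 were lower than in EncT, by 2.56-, 2.67- and 2.37-fold. The TNF receptors Tnfrsf1a and Tnfrsf1b, the costimulator Cd27, the death receptor Fas and Cd40 were higher than in EncT, by 1.72-, 1.78-, 3.75-, 2.29- and 14.1-fold. The Cd40 fold rests on a dim EncT level, and its log2 change of 3.82 became 3.19 with 16 added to the linear values before log2. Among nFoxA1Treg, Treg and EncT the differences were small: Tnfrsf4 and Tnfrsf1a were lower in nFoxA1Treg than in EncT by 1.27- and 1.24-fold, and Tnfrsf1a was lower in Treg than in EncT by 1.20-fold. No member was called between nFoxA1Treg and Treg.

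**Figure D2:**
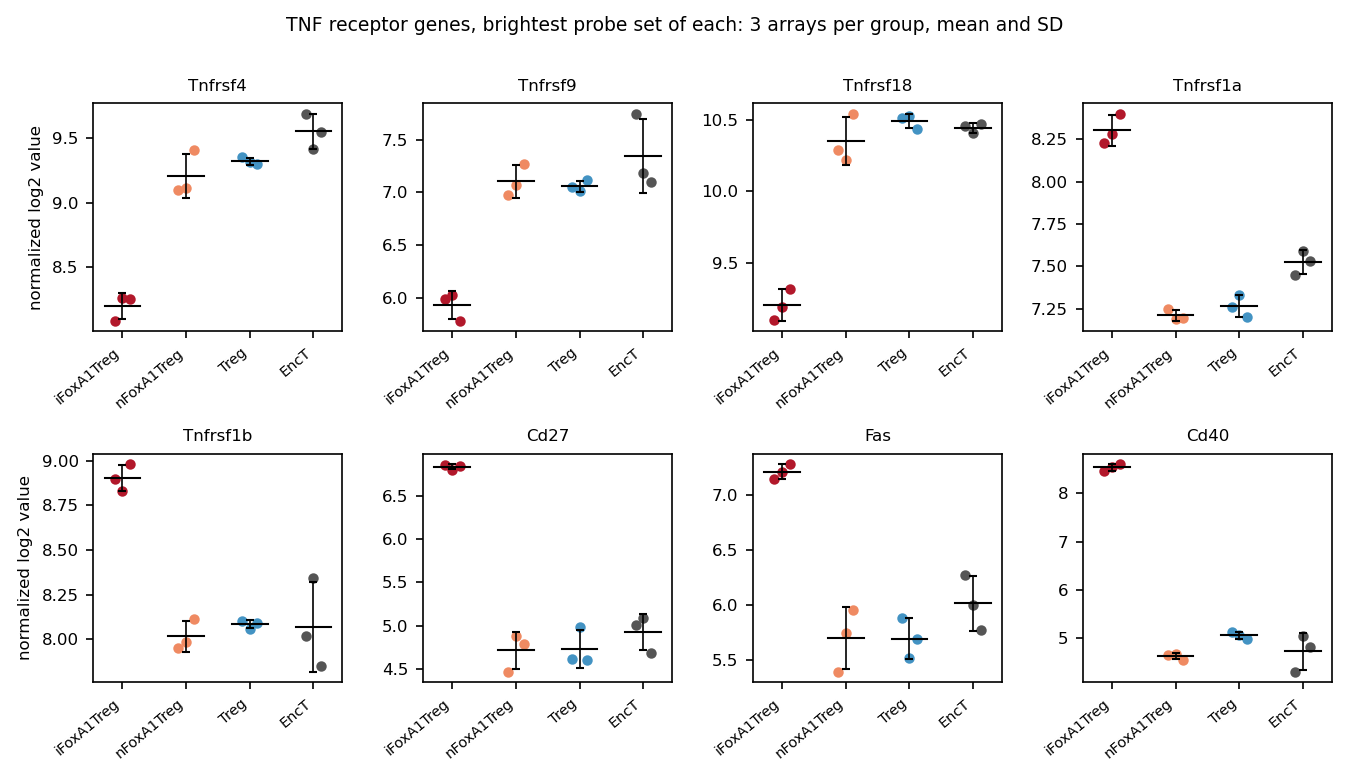
Normalized log2 values (y axis) of the brightest probe set of each of the 8 receptor genes, with 1 point per array, the mean as a line and the SD as a bar, 3 arrays per group; each panel has its own scale. Tnfrsf4, Tnfrsf9 and Tnfrsf18 are lowest, and Tnfrsf1a, Tnfrsf1b, Cd27, Fas and Cd40 highest, on the arrays labelled iFoxA1Treg.

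Tnfrsf4 (OX40, probe set 1420351_at), which sustains the survival of activated T cells, had values of 8.08, 8.26 and 8.25 on the arrays labelled iFoxA1Treg, 9.10, 9.12 and 9.41 in nFoxA1Treg, 9.35, 9.31 and 9.30 in Treg, and 9.69, 9.42 and 9.55 in EncT. All 3 arrays labelled iFoxA1Treg lay below the other 9, and all 3 EncT arrays lay above the other groups. The level was therefore ordered EncT, Treg, nFoxA1Treg and iFoxA1Treg by mean, with nFoxA1Treg and Treg overlapping. Against EncT, Tnfrsf4 was lower by 1.35 on the log2 scale on the arrays labelled iFoxA1Treg (SE 0.089, adjusted p = 1.59e-08). It was lower by 0.35 in nFoxA1Treg (SE 0.089, adjusted p = 0.0184). The change in Treg was -0.23 (95% interval -0.42 to -0.040, adjusted p = 0.103), not called although the arrays did not overlap. The call in nFoxA1Treg was lost without EncT replicate 1 (-0.28, adjusted p = 0.0665), without nFoxA1Treg replicate 1 (-0.29, 0.0808) or 2 (-0.30, 0.0793), and in a fit of the 2 groups' arrays alone (-0.34, 0.0708).

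Tnfrsf18 (GITR, 1422303_a_at), known for its high level on regulatory T cells, had values of 9.10, 9.19 and 9.32 on the arrays labelled iFoxA1Treg, 10.29, 10.22 and 10.55 in nFoxA1Treg, 10.51, 10.53 and 10.44 in Treg, and 10.46, 10.41 and 10.47 in EncT. Only the arrays labelled iFoxA1Treg stood apart, all below the other 9, and the other 3 groups overlapped in each pair. The level on the arrays labelled iFoxA1Treg was 1.24 below EncT (adjusted p = 8.76e-09), 1.29 below Treg and 1.15 below nFoxA1Treg, with an SE of 0.077 each. In nFoxA1Treg the change against EncT was -0.091 (95% interval -0.26 to 0.075, adjusted p = 0.485), and in Treg it was 0.048 (-0.12 to 0.21, adjusted p = 0.745).

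Tnfrsf9 (CD137 or 4-1BB), a receptor that activated T cells put on their surface, has 3 probe sets. The brightest, 1460469_at, read 5.98, 6.03 and 5.78 on the arrays labelled iFoxA1Treg, 6.97, 7.07 and 7.27 in nFoxA1Treg, 7.05, 7.01 and 7.12 in Treg, and 7.75, 7.18 and 7.10 in EncT. The arrays labelled iFoxA1Treg lay below all others, and EncT replicate 1 above all others. It was lower by 1.42 on the arrays labelled iFoxA1Treg than in EncT (SE 0.15, adjusted p = 1.63e-06). The change was -0.24 in nFoxA1Treg (95% interval -0.56 to 0.080, adjusted p = 0.314) and -0.29 in Treg (-0.61 to 0.034, adjusted p = 0.233), neither called.

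The other Tnfrsf9 probe sets did not both follow it. Probe set 1428034_a_at read 6.49, 6.47 and 6.35 on the arrays labelled iFoxA1Treg, 5.75, 5.73 and 6.52 in nFoxA1Treg, 5.89, 5.91 and 6.18 in Treg, and 6.42, 6.03 and 5.88 in EncT. Here the arrays labelled iFoxA1Treg lay at the upper end, overlapping nFoxA1Treg and EncT, and the change against EncT was 0.32 (95% interval -0.10 to 0.75, adjusted p = 0.158). With array weights it was called as higher against EncT (0.52, adjusted p = 0.00825), Treg (0.43, 0.0368) and nFoxA1Treg (0.61, 0.00447). It was also called against Treg in a fit of the 2 groups' arrays alone (0.44, adjusted p = 0.00479), and against nFoxA1Treg without nFoxA1Treg replicate 3 (0.69, 0.00180). The dim probe set 1421481_at read 3.35, 4.06 and 3.78 on the arrays labelled iFoxA1Treg and 4.05 to 4.54 on the other 9. It was called against Treg (-0.66, adjusted p = 0.00872) and nFoxA1Treg (-0.62, adjusted p = 0.0120), and not against EncT (-0.43, adjusted p = 0.0644), where it was called with the values as deposited (-0.54, 0.0258), in a fit without an intensity trend (-0.43, 0.0301) and without iFoxA1Treg replicate 2 (-0.60, 0.0198). The call against nFoxA1Treg was lost without iFoxA1Treg replicate 1 (-0.43, adjusted p = 0.0551). Which transcripts each probe set reads was not tested.

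**Figure D3:**
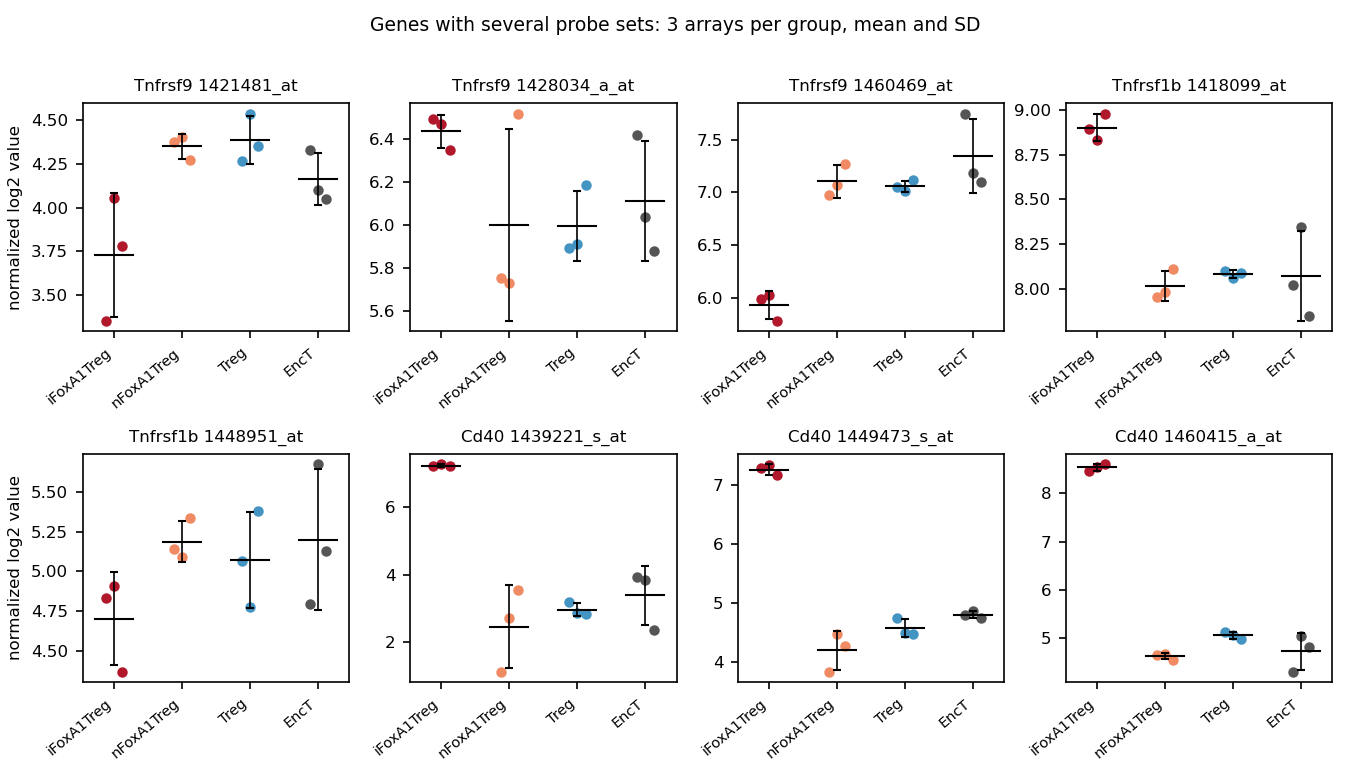
Normalized log2 values (y axis) of every probe set of the 3 genes with several, Tnfrsf9, Tnfrsf1b and Cd40, with 1 point per array, the mean as a line and the SD as a bar, 3 arrays per group; each panel has its own scale. The arrays labelled iFoxA1Treg are lowest by mean for 2 Tnfrsf9 probe sets and highest by mean for 1428034_a_at, highest for Tnfrsf1b 1418099_at and lowest by mean for 1448951_at, and highest for all 3 Cd40 probe sets.

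Tnfrsf1a (TNF receptor 1, 1417291_at), the broadly expressed death domain receptor of TNF, had values of 8.23, 8.28 and 8.40 on the arrays labelled iFoxA1Treg, 7.25, 7.19 and 7.20 in nFoxA1Treg, 7.26, 7.33 and 7.20 in Treg, and 7.45, 7.59 and 7.53 in EncT. Levels were highest on the arrays labelled iFoxA1Treg and next in EncT, with no overlap between these and the rest, while nFoxA1Treg and Treg overlapped. Tnfrsf1a was higher on the arrays labelled iFoxA1Treg than in EncT by 0.78 (SE 0.071, adjusted p = 4.21e-07). It was lower in nFoxA1Treg than in EncT by 0.31 (SE 0.071, adjusted p = 0.00978) and lower in Treg than in EncT by 0.26 (adjusted p = 0.0280). In a fit of the 2 groups' arrays alone, the nFoxA1Treg change was -0.31 with an adjusted p of 0.0502. The Treg call was also lost there (-0.26, 0.0913), without EncT replicate 2 (-0.23, 0.0577) or 3 (-0.26, 0.0716) and without Treg replicate 1 (-0.26, 0.0696) or 3 (-0.23, 0.109).

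Tnfrsf1b (TNF receptor 2, 1418099_at), which has no death domain and promotes T cell growth, read 8.90, 8.83 and 8.98 on the arrays labelled iFoxA1Treg, 7.95, 7.98 and 8.11 in nFoxA1Treg, 8.10, 8.06 and 8.09 in Treg, and 8.02, 8.34 and 7.85 in EncT. All arrays labelled iFoxA1Treg stood above the others, and the EncT arrays spanned the range of both other groups. Against EncT the change was 0.83 on the arrays labelled iFoxA1Treg (SE 0.10, adjusted p = 7.10e-06), -0.054 in nFoxA1Treg (95% interval -0.27 to 0.16) and 0.013 in Treg (-0.21 to 0.23). The dimmer probe set 1448951_at pointed the other way: 4.83, 4.91 and 4.37 on the arrays labelled iFoxA1Treg, against 4.80, 5.67 and 5.13 in EncT, a change of -0.50 that was not called (95% interval -0.99 to 0.0027, adjusted p = 0.0704). It read 5.14, 5.09 and 5.33 in nFoxA1Treg and 5.06, 4.78 and 5.38 in Treg, both overlapping EncT. On the arrays labelled iFoxA1Treg it was called as lower against EncT with the values as deposited (-0.64, adjusted p = 0.0194) and without EncT replicate 1 (-0.70, adjusted p = 0.0180). Against nFoxA1Treg it was called as lower with the values as deposited (-0.61, 0.0244) and in a fit of the 2 groups' arrays alone (-0.48, 0.0407).

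Cd27 (1452389_at), a costimulator of T cells that in humans also marks memory B cells, had values of 6.85, 6.80 and 6.85 on the arrays labelled iFoxA1Treg, 4.47, 4.88 and 4.79 in nFoxA1Treg, 4.61, 4.99 and 4.60 in Treg, and 5.01, 5.08 and 4.69 in EncT. The 3 arrays labelled iFoxA1Treg stood well above the other 9, which overlapped between each pair of groups. Cd27 was higher by 1.91 on the arrays labelled iFoxA1Treg than in EncT (SE 0.16, adjusted p = 1.82e-07). It was also higher there than in Treg by 2.10 and than in nFoxA1Treg by 2.11. The change against EncT was -0.21 in nFoxA1Treg (95% interval -0.55 to 0.14, adjusted p = 0.433) and -0.19 in Treg (-0.54 to 0.15, adjusted p = 0.481).

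Fas (1460251_at), the receptor that starts apoptosis when bound by Fas ligand, had values of 7.14, 7.20 and 7.28 on the arrays labelled iFoxA1Treg, 5.40, 5.75 and 5.95 in nFoxA1Treg, 5.88, 5.52 and 5.69 in Treg, and 6.27, 6.0 and 5.77 in EncT. Again the arrays labelled iFoxA1Treg lay above all others, and the other 3 groups overlapped. Fas was higher there than in EncT by 1.19 (SE 0.16, adjusted p = 1.74e-05), than in Treg by 1.51 and than in nFoxA1Treg by 1.51. The changes of -0.31 in nFoxA1Treg (95% interval -0.66 to 0.030, adjusted p = 0.212) and -0.32 in Treg (-0.66 to 0.025, adjusted p = 0.214) against EncT were not called.

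Cd40 showed the largest difference between the arrays labelled iFoxA1Treg and EncT among the 8 genes. Its brightest probe set, 1460415_a_at, read 8.47, 8.54 and 8.60 on the arrays labelled iFoxA1Treg, 4.65, 4.67 and 4.55 in nFoxA1Treg, 5.13, 5.05 and 4.99 in Treg, and 4.30, 5.05 and 4.82 in EncT. The arrays labelled iFoxA1Treg were all above the other 9, and the change against EncT was 3.82 (SE 0.16, adjusted p = 1.82e-10). Probe set 1449473_s_at read 7.28, 7.33 and 7.16 on the arrays labelled iFoxA1Treg, 3.84, 4.48 and 4.28 in nFoxA1Treg, 4.75, 4.49 and 4.48 in Treg, and 4.81, 4.86 and 4.74 in EncT. It was higher by 2.45 on the arrays labelled iFoxA1Treg than in EncT. Probe set 1439221_s_at, below the filter level with a mean of 4.01, read 7.19, 7.25 and 7.20 on the arrays labelled iFoxA1Treg and 1.14 to 3.94 on the other 9, and was called as higher than in EncT in the fit without a filter (adjusted p = 6.48e-05). Since its EncT mean was below the filter level, the change depended on the scale: 3.83 there and 2.59 with 16 added before log2. B cells and macrophages are known to carry Cd40. The sums of their markers and the MHC class II genes were also higher on these arrays than in EncT (above). Of the CD8 T and NK cell list, Cd8a, Cd8b1, Eomes and Prf1 were higher there than in EncT. Gzma was lower by 2.71, Klrd1 was at 0.026 (adjusted p = 0.860), and the sum of this list was lower. All 9 T cell markers were lower there than in EncT. The part of these cell types in the Cd40, Cd27 and Fas values was not tested.

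In nFoxA1Treg, the Cd40 probe set 1449473_s_at was lower than in EncT by 0.60 (SE 0.16, adjusted p = 0.0224), with no overlap of the arrays, whereas 1460415_a_at differed by -0.10 (95% interval -0.44 to 0.24, adjusted p = 0.742) with overlapping arrays. Adding 16 to the linear values before log2 gave -0.35 for 1449473_s_at (adjusted p = 0.0275). The call was lost without EncT replicate 1 (-0.60, adjusted p = 0.0560), without nFoxA1Treg replicate 1 (-0.42, adjusted p = 0.0896) and in a fit of the 2 groups' arrays alone (-0.62, adjusted p = 0.0890). Cd74, the MHC class II invariant chain of the dendritic cell list, read 5.17, 5.76 and 6.88 in nFoxA1Treg, 7.32, 6.95 and 6.91 in Treg and 8.09, 8.27 and 7.95 in EncT. The summed dendritic cell and MHC class II markers, given above, were lower in nFoxA1Treg than in EncT on every array, and their part in the Cd40 change was not tested.

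**Figure D4:**
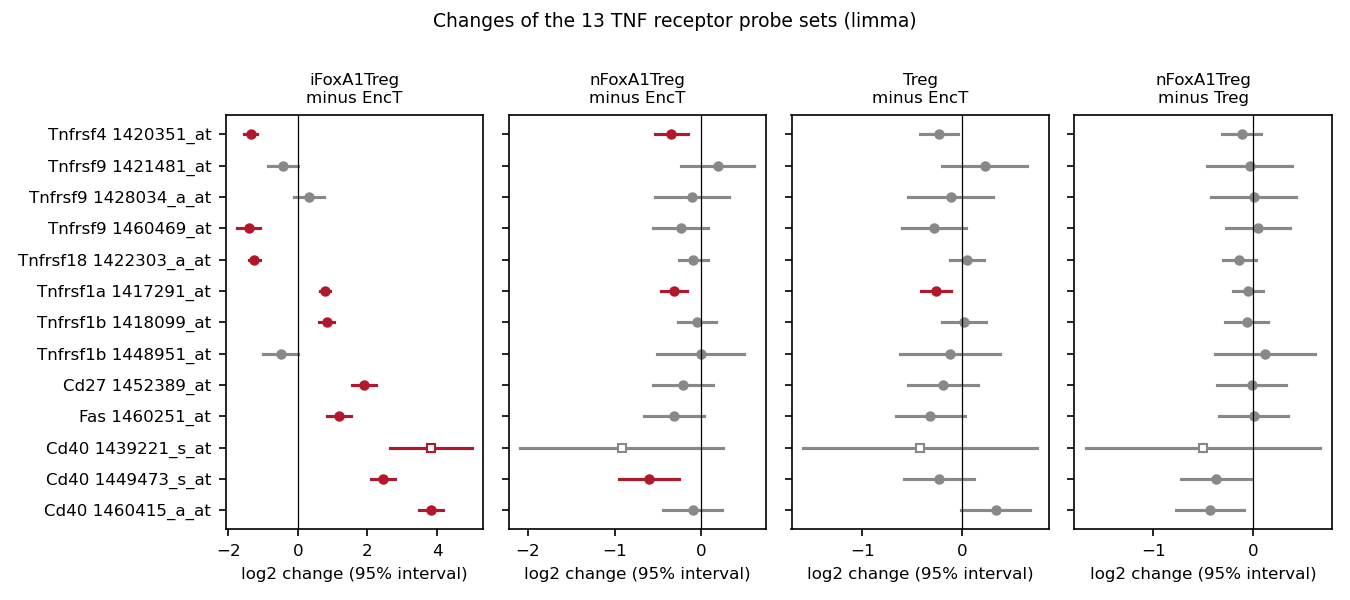
Log2 changes (x axis, limma, with 95% intervals) of the 13 TNF receptor probe sets in 4 comparisons. Red marks an adjusted p under 0.05, grey the rest, and open squares the Cd40 probe set below the filter, from the fit without a filter. The panel of the arrays labelled iFoxA1Treg has a wider scale and 10 red probe sets, against 3 for nFoxA1Treg and 1 for Treg set against EncT, and 0 for nFoxA1Treg set against Treg.

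Of the 13 member probe sets, 12 passed the filter, and the same 12 passed it when it was set over the 9 arrays of nFoxA1Treg, Treg and EncT, so none passed only through the arrays labelled iFoxA1Treg. On the arrays labelled iFoxA1Treg, set against EncT, 6 of the 12 were higher and 3 lower, and 9 did not overlap. Of all probe sets tested in that comparison 70.2% were called, 30.5% as higher and 39.7% as lower, and 71.6% did not overlap. Against Treg, 6 were higher and 4 lower, where 71.7% of all were called (31.2% higher, 40.5% lower), and 11 did not overlap, where 76.2% of all did not. Against nFoxA1Treg the counts were also 6, 4 and 11, where 72.2% of all were called (30.9% higher, 41.3% lower) and 76.2% did not overlap. By the brightest probe set of each gene, 5 of 8 members were higher and 3 lower in each of these comparisons. Of all genes, 71.7% were called against EncT (33.7% higher, 38.0% lower), 73.0% against Treg (35.0% higher, 38.0% lower) and 73.7% against nFoxA1Treg (34.8% higher, 38.9% lower). So 8 of 8 members were called by gene, with more higher than lower, whereas fewer of all genes were higher than lower, and this difference in direction was not tested. The median change of the member probe sets was 0.55 against EncT, 0.63 against Treg and 0.66 against nFoxA1Treg, against -0.074, -0.084 and -0.095 for all probe sets.

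In nFoxA1Treg, set against EncT, 0 of the 12 were higher and 3 lower (Tnfrsf4, Tnfrsf1a and 1 Cd40 probe set), and 3 did not overlap. Of all probe sets 17.1% were called, 8.38% as higher and 8.67% as lower, and 32.5% did not overlap. In Treg, set against EncT, 1 of the 12 was lower (Tnfrsf1a) and 2 did not overlap, where 14.0% of all were called, 7.69% as lower, and 32.1% did not overlap. The median member change was -0.16 in both comparisons, which share the EncT arrays, against 0.011 and 0.0081 for all probe sets. By the brightest probe set per gene, 2 of 8 genes were lower in nFoxA1Treg than in EncT, where 18.1% of all genes were called (7.77% higher, 10.3% lower), and 1 of 8 in Treg, where 14.7% were (5.42% higher, 9.29% lower).

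Between nFoxA1Treg and Treg, limma called 0 of the 12 member probe sets, where 0.00740% of all were called. At an unadjusted p under 0.05 there were 2, where 3.45% of all probe sets had one, both of Cd40: 1460415_a_at was at -0.43 (95% interval -0.78 to -0.091) and 1449473_s_at at -0.37 (-0.72 to -0.024), each with an adjusted p of 0.9995. The first of these was the 1 member probe set whose arrays did not overlap, where 11.2% of all did not. For Tnfrsf4 the interval of the difference ran from -0.31 to 0.077, for Tnfrsf18 from -0.31 to 0.026, for Tnfrsf1a from -0.21 to 0.10, and for Fas from -0.34 to 0.35.

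Several ligands of the TNF family were lower in nFoxA1Treg and in Treg than in EncT. Of these, Tnfsf9, Fasl and Tnf bind a receptor described here. Of 17 ligand genes listed, 13 were measured, and Tnfsf12, Tnfsf13, Tnfsf15 and Tnfsf18 were not analysed here. In nFoxA1Treg 6 of the 13 were lower than in EncT and 0 higher, with a median change of -0.48 against -0.0045 for all genes. In Treg 4 were lower than in EncT and 0 higher, with a median of -0.31. Of all genes, 10.3% were called lower in nFoxA1Treg and 9.29% in Treg. Between nFoxA1Treg and Treg, 0 of the 13 were called, where 0.00793% of all genes were. On the arrays labelled iFoxA1Treg 11 were lower than in EncT and 1 higher, where 38.0% and 33.7% of all genes were, with a median of -1.56. Markers of other cells were lower than in EncT as well: in nFoxA1Treg 4 of 8 macrophage markers tested and 5 of 7 dendritic cell or MHC class II markers, and in Treg 3 of 8 and 2 of 7. Among them Lyz2 changed by -3.92 in nFoxA1Treg and -2.59 in Treg, or by -1.50 and -1.23 with 16 added before log2. Lyz2, Fcgr3 and Cybb averaged 1.25, 1.68 and 0.25 in nFoxA1Treg and 2.59, 1.13 and 3.29 in Treg, under the filter level. Their means were 5.18, 4.40 and 5.11 in EncT, and 12.36, 9.72 and 11.33 on the arrays labelled iFoxA1Treg. The choice of these genes for testing, and so their calls, rests on those arrays. Cd14, also lower in both groups, lay above the filter level in every group. The part of these markers in the ligand values was not tested.

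Tnfsf9, the ligand of Tnfrsf9, read 5.86, 5.88 and 5.79 on the arrays labelled iFoxA1Treg, 5.96, 6.06 and 5.80 in nFoxA1Treg, 6.0, 5.96 and 6.09 in Treg, and 7.75, 7.11 and 7.36 in EncT. All 9 arrays of the other groups lay below the lowest EncT array. Against EncT it was lower by 1.56 on the arrays labelled iFoxA1Treg (adjusted p = 3.66e-07), by 1.47 in nFoxA1Treg (SE 0.14, adjusted p = 4.97e-05) and by 1.39 in Treg (adjusted p = 1.20e-04).

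Fasl, the ligand of Fas and a means by which T cells kill, read 5.40, 5.60 and 5.59 on the arrays labelled iFoxA1Treg, 7.12, 7.21 and 7.62 in nFoxA1Treg, 7.52, 7.43 and 7.46 in Treg, and 8.20, 8.40 and 8.36 in EncT. EncT was highest with no overlap, nFoxA1Treg and Treg overlapped, and the arrays labelled iFoxA1Treg were lowest. Fasl was lower than in EncT by 2.79 on the arrays labelled iFoxA1Treg, by 1.0 in nFoxA1Treg (adjusted p = 2.28e-04) and by 0.85 in Treg (adjusted p = 8.41e-04). Tnf, the ligand of Tnfrsf1a and Tnfrsf1b, read 5.86, 5.92 and 5.89 on the arrays labelled iFoxA1Treg, 5.90, 5.75 and 6.13 in nFoxA1Treg, 5.71, 6.04 and 5.92 in Treg, and 7.53, 6.91 and 6.72 in EncT. EncT lay above all other arrays, and Tnf was lower than in EncT by 1.17 on the arrays labelled iFoxA1Treg, by 1.13 in nFoxA1Treg (adjusted p = 0.00135) and by 1.17 in Treg (adjusted p = 0.00146). The Tnfsf9, Fasl and Tnf calls in nFoxA1Treg and in Treg held under every alternative run.

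Of the other ligands, Lta, Cd70, Cd40lg and Tnfsf4 were not called in nFoxA1Treg or Treg against EncT. Cd70, the ligand of Cd27, read 0.95, 1.92 and 3.14 on the arrays labelled iFoxA1Treg, 4.86, 5.16 and 5.52 in nFoxA1Treg, 4.89, 5.01 and 5.08 in Treg, and 6.69, 5.32 and 5.92 in EncT. Its change in Treg was -0.99 (SE 0.45, adjusted p = 0.175), which with 16 added before log2 became -0.74 (adjusted p = 0.0316). Cd40lg, by which T cells signal to Cd40, read 2.97, 1.87 and 2.18 on the arrays labelled iFoxA1Treg, below the filter level, and 4.18 to 5.28 on the other 9. On those arrays Cd70, Cd40lg and Lta were lower than in EncT by 3.98, 2.59 and 1.98, while Tnfsf4, the ligand of Tnfrsf4, was higher by 0.66 (adjusted p = 0.0243). Tnfsf11 (RANKL), which drives osteoclast formation, was lower there by 3.06 (adjusted p = 3.64e-08), or by 2.35 with 16 added before log2. With 16 added before log2, the changes of Cd70, Cd40lg and Tnfsf4 there were -1.96, -1.13 and 0.38. To complete the counts, and chosen after their values were seen, the other called ligands in nFoxA1Treg were Ltb (-0.48), Tnfsf8 (-0.70) and Tnfsf14 (-0.79), and in Treg Tnfsf14 (-0.96).

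**Figure D5:**
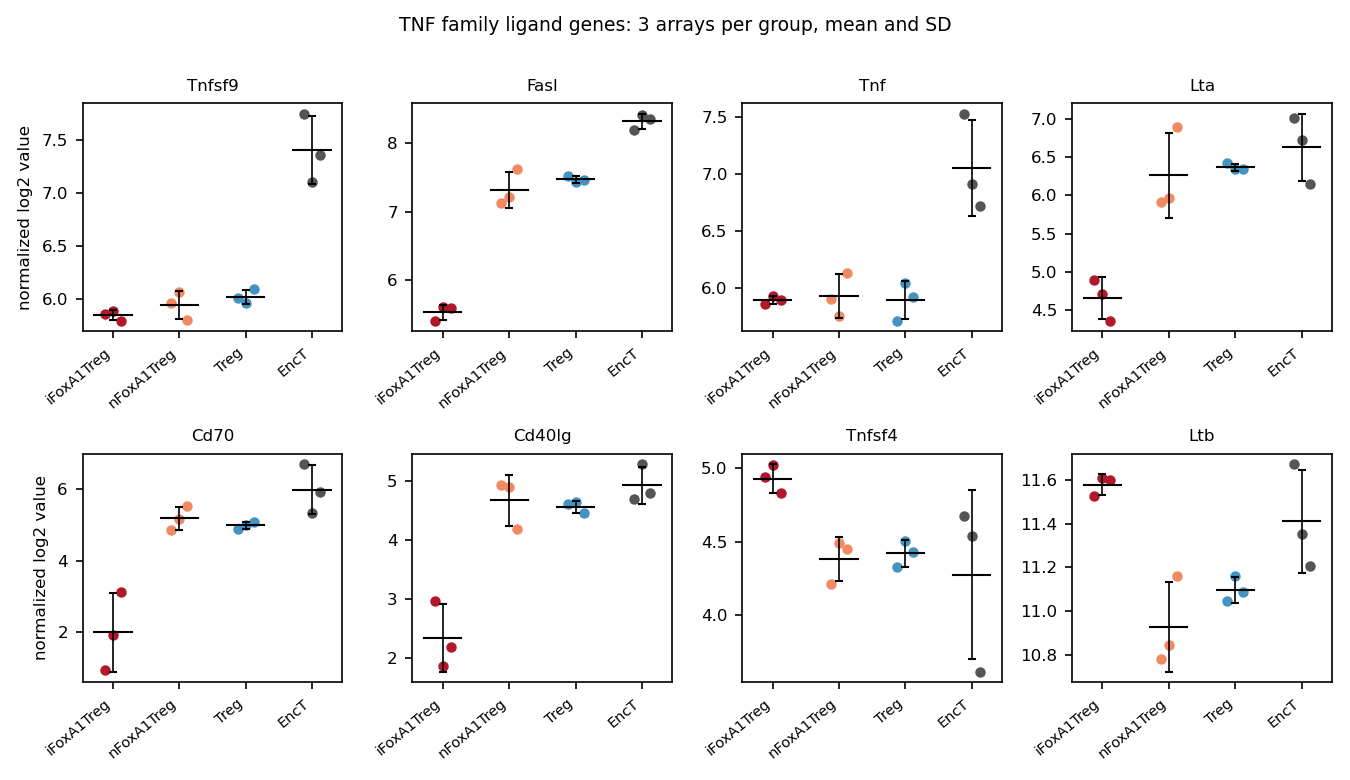
Normalized log2 values (y axis) of 8 TNF family ligand genes, with 1 point per array, the mean as a line and the SD as a bar, 3 arrays per group; each panel has its own scale. Tnfsf9, Fasl and Tnf are higher on every EncT array than on any array of the other 3 groups, and Cd70 and Cd40lg are lowest on the arrays labelled iFoxA1Treg.

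Among 20 other receptors of the family, 19 were on the array and 11 passed the filter. In nFoxA1Treg 1 of the 11 was lower than in EncT, Tnfrsf13b (TACI, a receptor of B cells), by 0.24 (adjusted p = 0.0348), where 10.3% of all genes were lower, and this call was lost under 8 alternatives. Tnfrsf25 (DR3, the receptor of Tnfsf15) was at -0.89 (adjusted p = 0.0511) and Tnfrsf21 at 0.29 (adjusted p = 0.449). In Treg 0 of the 11 were called, with Tnfrsf25 at -0.84 (adjusted p = 0.0699), Tnfrsf13b at -0.17 (0.127) and Relt at 0.23 (0.152), and between nFoxA1Treg and Treg also 0. On the arrays labelled iFoxA1Treg 6 of the 11 were higher than in EncT and 2 lower, where 33.7% and 38.0% of all genes were. Tnfrsf13c, the BAFF receptor by which B cells survive, read 10.49, 10.51 and 10.56 on these arrays, against 2.60, 5.15 and 4.95 in EncT, and was higher by 6.28 (adjusted p = 4.09e-07), or by 5.30 with 16 added before log2. Ltbr, the lymphotoxin beta receptor, which is known from stromal and myeloid cells and not from lymphocytes, was higher by 2.03 (adjusted p = 1.60e-05), or by 1.26 with 16 added before log2. The size of the Ltbr change thus depended on the scale, and whether it passed the filter only through these arrays is not given here.

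Of 17 TRAF and death domain adaptors, 15 were measured. In nFoxA1Treg 3 were higher and 3 lower than in EncT, where 7.77% and 10.3% of all genes were. In Treg 1 was higher and 2 lower, where 5.42% and 9.29% were, and between nFoxA1Treg and Treg 0 were called. Cflar, the inhibitor of caspase-8 activation by death receptors, read 8.87, 8.71 and 8.65 on the arrays labelled iFoxA1Treg, 7.45, 7.56 and 7.53 in nFoxA1Treg, 7.69, 7.62 and 7.54 in Treg, and 8.16, 8.02 and 8.08 in EncT. The groups did not overlap except nFoxA1Treg with Treg. Cflar was lower than in EncT by 0.57 in nFoxA1Treg (SE 0.074, adjusted p = 3.88e-04) and by 0.47 in Treg (adjusted p = 0.00160). Birc3, a ubiquitin ligase bound to TRAF2, was lower by 0.31 in nFoxA1Treg and by 0.28 in Treg, and Siva1, a protein that binds the Cd27 tail, was higher by 0.25 and 0.31 in the same groups. On the arrays labelled iFoxA1Treg 5 of the 15 were higher than in EncT and 5 lower, near the 33.7% and 38.0% of all genes. Traf5, an adaptor of Cd27, Cd40 and Tnfrsf4, was higher by 1.92 (adjusted p = 1.33e-09), Birc3 was higher by 0.99 and Traf3ip2, an adaptor of the interleukin-17 receptor, was lower by 0.95.

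Of 15 genes of the NF-kappaB pathway, 13 were measured. In nFoxA1Treg 3 were higher and 2 lower than in EncT, and in Treg 1 was higher and 2 lower, beside the same shares of all genes as for the adaptors. Between nFoxA1Treg and Treg 0 were called. Tnfaip3 (A20), which shuts off signals from TNF receptors to NF-kappaB, read 9.06, 9.10 and 9.15 on the arrays labelled iFoxA1Treg, 9.97, 9.98 and 10.30 in nFoxA1Treg, 9.86, 9.73 and 9.72 in Treg, and 9.20, 8.70 and 8.67 in EncT. All arrays of nFoxA1Treg and Treg lay above those of EncT. Tnfaip3 was higher than in EncT by 1.23 in nFoxA1Treg (SE 0.12, adjusted p = 7.18e-05) and by 0.92 in Treg (adjusted p = 7.05e-04). Bcl3, a nuclear partner of NF-kappaB p50 and p52, was lower by 0.60 in nFoxA1Treg (adjusted p = 0.00115) and by 0.57 in Treg (adjusted p = 0.00187). Nfkbie, an inhibitor of NF-kappaB, was lower by 0.30 in nFoxA1Treg (adjusted p = 0.0111) and by 0.39 in Treg (adjusted p = 0.00287). The Cflar, Tnfaip3 and Bcl3 calls in both groups held under every alternative run. On the arrays labelled iFoxA1Treg 4 of the 13 were higher than in EncT and 5 lower, near the 33.7% and 38.0% of all genes, led by Rel at 2.51 higher, Nfkbie at 1.37 higher and Tnip1 at 0.88 lower.

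For the members called among nFoxA1Treg, Treg and EncT, the genes with the most similar profile over these 9 arrays were found by Pearson correlation of the normalized log2 values. For Tnfrsf4 they were Lxn (r = 0.981) and Cyb5a (r = 0.978), and for Tnfrsf1a Lrrc8c (r = 0.988) and Fxyd5 (r = 0.983). These are the highest values among 12609 genes over 9 points that fall in 3 groups, and are given as a description. Over all 12 arrays the values for Tnfrsf4 were 0.980 with Lxn and 0.951 with Cyb5a, while those for Tnfrsf1a were -0.61 with Lrrc8c and -0.89 with Fxyd5.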

How the data were processed

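RNA of 12 arrays was measured, 3 for each of 4 cell types taken from the labels. The authors deposited log2 probe set values; the submitters' processing notes name PLIER, and any normalization between arrays is not given in the sources used here. The log base was read from the range of the values. The array annotation gave 1 gene symbol to 34945 probe sets, several to 932 and none to 9160. Columns of values not used numbered 0, and 0 pairs of arrays were identical.

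Values were quantile normalized, and the upper 60% of probe sets by mean level were kept (27022, or 12609 genes by their brightest probe set). With limma 3.58.1 in R 4.3.3, 1 mean per group was fitted to all 12 arrays (8 residual degrees of freedom) with eBayes and an intensity trend, two-sided, with Benjamini-Hochberg adjustment over all probe sets tested. The script was tested on simulated data. The members, gene lists, motifs and tests were chosen with earlier results of these data known. Named were all member probe sets, the members' ligands, and the 3 genes with the smallest adjusted p of each list in each comparison against EncT. An exception was the other TNF receptors on the arrays labelled iFoxA1Treg, where only Tnfrsf13c and Ltbr, both higher than in EncT, were named. The 2 lower ones are not given. Between nFoxA1Treg and Treg the lowest adjusted p of the lists were tied, so the rule named none there. Pathway lists held other TNF receptors, ligands, adaptors, NF-kappaB genes and Foxp3 Treg core genes. Alternatives changed the normalization, filter, scale, arrays fitted, variance model and array weights, added a replicate block, and left out each array in turn. Promoter windows came from RefSeq, and motifs were searched as cores of at most 9 letters. With 3 arrays per group, the number of arrays limits the precision, and scanner files were not used here.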

Additional observations from a re-analysis of the deposited data

How the results depend on the processing

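With 3 arrays per group, small changes depended on the processing. Of the 4 member changes called among nFoxA1Treg, Treg and EncT, 0 held under every alternative. Each was lost in a fit of the 2 groups' arrays alone. Each except Tnfrsf1a in nFoxA1Treg was also lost when some single array was left out. Alternatives other than leaving out an array numbered 12. In Treg against EncT, 1 member probe set was called, with 0 in a fit of the 2 groups' arrays alone, 3 with array weights, and 0 to 2 when 1 array was left out (2 without EncT replicate 2, 0 without EncT replicate 3, Treg replicate 1 or Treg replicate 3). In nFoxA1Treg against EncT, 3 were called, with 0 for the 2 groups' arrays alone and 1 to 3 when 1 array was left out (1 without EncT replicate 1 or nFoxA1Treg replicate 1). The counts of 9, 10 and 10 for the arrays labelled iFoxA1Treg stayed within 1.5 times, and that for nFoxA1Treg against Treg was 0 throughout. No called member change turned its direction. Calls gained but not given above were, in Treg against EncT, Tnfrsf4 with array weights (-0.23, adjusted p = 0.00706) and without EncT replicate 2 (-0.30, 0.0398), Tnfrsf1b 1418099_at with array weights (0.20, 0.0448) and Cd40 1460415_a_at without EncT replicate 2 (0.50, 0.0349), and in nFoxA1Treg Tnfrsf18 with array weights (-0.18, 0.0146).

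Whether the replicate numbers pair the arrays was not settled. Same-number deviations correlated at -0.19 to 0.21 over 18 pairs and different-number ones at -0.17 to 0.26 over 36. Between EncT and Treg the same-number values were 0.21, 0.13 and 0.083. The highest different-number values were between EncT and nFoxA1Treg (0.15, 0.26 and 0.15). A replicate block covers only a pairing by the same number. With the replicate block, 72 of 72 member changes kept their direction and side of the threshold, and the counts were 3 in nFoxA1Treg, 1 in Treg, 0 between them, and 9, 10 and 10 for the arrays labelled iFoxA1Treg.

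Over all probe sets, the count in nFoxA1Treg against EncT was 4609, with 2474 for 1 probe set per gene, 2453 for the 2 groups' arrays, 9981 with array weights, 2656 without nFoxA1Treg replicate 1 and 2729 without nFoxA1Treg replicate 2. In Treg it was 3794, with 2084, 2365 and 8954 under the first 3 of these, 1885 without Treg replicate 2 and 2039 without Treg replicate 3. Between nFoxA1Treg and Treg it was 2, with 8 without a filter, 0 for the upper 40%, 4 for log2(value + 16), 1 per gene, 14 with array weights and 19 without nFoxA1Treg replicate 3. For the arrays labelled iFoxA1Treg it was 18979, 19382 and 19506, and 9103, 9276 and 9383 with 1 probe set per gene.

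Signs turned only for uncalled changes, not all of them near 0: Cd27 in nFoxA1Treg against EncT was at -0.21 in the main fit. With array weights, Cd27 was at 0.0032 in nFoxA1Treg against EncT and 0.012 against Treg, Fas -0.039 and Tnfrsf9 1460469_at -0.0044 in nFoxA1Treg against Treg, Tnfrsf1b 1418099_at 0.10 in nFoxA1Treg against EncT, and Tnfrsf9 1428034_a_at 0.094 in Treg against EncT and -0.18 in nFoxA1Treg against Treg. Tnfrsf1b 1418099_at in Treg against EncT was -0.024 both as deposited and median-centred. Leaving out 1 array gave these lowest and highest values. In nFoxA1Treg against Treg they were -0.10 and 0.11 for Cd27, -0.12 and 0.16 for Fas, -0.034 and 0.27 for Tnfrsf1b 1448951_at, and for Tnfrsf9 -0.096 and 0.038 (1421481_at), -0.25 and 0.14 (1428034_a_at) and -0.039 and 0.11 (1460469_at). In nFoxA1Treg against EncT they were -0.31 and 0.062 for Cd40 1460415_a_at, -0.17 and 0.082 for Tnfrsf1b 1418099_at, -0.21 and 0.23 for Tnfrsf1b 1448951_at, and -0.37 and 0.043 for Tnfrsf9 1428034_a_at. In Treg against EncT they were -0.098 and 0.15 for Tnfrsf1b 1418099_at, -0.33 and 0.11 for Tnfrsf1b 1448951_at, and -0.23 and 0.039 for Tnfrsf9 1428034_a_at. The causes were not tested.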

Other observations

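Genes known from Foxp3-dependent regulatory T cells were listed beside the TNF receptors, since Tnfrsf4, Tnfrsf9 and Tnfrsf18 belong to the same programme in mice. Of 16, 13 were on the array and 12 passed the filter. In nFoxA1Treg 1 of the 12 was higher and 3 lower than in EncT, where 7.77% and 10.3% of all genes were. In Treg 1 was higher and 1 lower, where 5.42% and 9.29% were, and between nFoxA1Treg and Treg limma called 0. Ctla4, an inhibitory receptor of regulatory T cells, read 10.87, 10.73 and 10.84 in nFoxA1Treg, 10.59, 10.66 and 10.60 in Treg, and 10.00, 9.76 and 10.11 in EncT. All arrays of both regulatory groups lay above EncT, and the gene was higher by 0.86 in nFoxA1Treg (adjusted p = 2.43e-05) and by 0.66 in Treg (adjusted p = 2.30e-04). Ebi3, a subunit of interleukin-35, was lower than in EncT by 0.60 in nFoxA1Treg and by 0.57 in Treg, and Ikzf2 (Helios) by 0.55 in nFoxA1Treg. Il10 was at 1.13 in Treg (adjusted p = 0.0899). On the arrays labelled iFoxA1Treg 4 of the 12 were higher and 7 lower than in EncT, where 33.7% and 38.0% of all genes were. Il2ra was lower there by 2.80, Ctla4 by 2.33 and Nrp1 by 1.26, while Il10, an inhibitory cytokine of several cell types, was higher by 3.05 (adjusted p = 2.07e-05).

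Foxp3 itself lay below the filter. Its group means were 5.22 on the arrays labelled iFoxA1Treg, 2.55 in nFoxA1Treg, 2.77 in Treg and 1.66 in EncT, with an SD of 1.85 over the 3 EncT arrays. In the fit without a filter its change against EncT was 3.56 on the arrays labelled iFoxA1Treg (SE 0.76, adjusted p = 0.00174), against an EncT mean below the filter level, 0.89 in nFoxA1Treg (SE 0.76, adjusted p = 0.601) and 1.10 in Treg (adjusted p = 0.493).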
